A study of Caenorhabditis elegans with 18 samples.

Results

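Glutathione S-transferases join the tripeptide glutathione to reactive electrophiles, such as toxins and products of lipid peroxidation, and so make them soluble and fit for export. Worms carry a large family of them. Many of its genes, *gst-4* above all, are known targets of SKN-1, the worm counterpart of the mammalian Nrf factors, which acts mainly in the intestine in response to oxidants and xenobiotics. The family was taken as all genes whose symbol is gst, gstk (kappa class) or gsto (omega class) followed by a number, and this gave 49 of 46748 gene identifiers, of which 44 were gst, 3 gsto and 2 gstk genes. The rule itself uses symbols only.

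Poly(A) RNA of whole *Caenorhabditis elegans* was counted per gene in 18 libraries. The wild-type strain N2 (WT) and the strain CF2473, which carries the deletion allele ok799 of *ire-1*, the gene of a stress sensor of the endoplasmic reticulum, were raised at 15 °C and taken as day-1 adults, either at once (control) or after a further 24 h at 2 °C (cold). Both strains were sampled in experiment 1, at n = 3 for each strain and temperature (numbers 1 to 3). Experiment 2 added 3 control and 3 cold WT libraries (numbers 4 to 6). Cold worms were thus also 24 h older than controls, and age and cold cannot be told apart. The ire-1 libraries are of 1 strain, and the labels do not say whether replicates are separate cultures, so that p-values measure the spread between these libraries only. In whole worms, fewer cells of a type and less RNA per cell cannot be told apart either.

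Libraries of experiment 1 held 20621965 to 29518450 gene counts, and those of experiment 2 held 10449794 to 16814732. Within experiment 1 *ire-1* itself was at 36.6 to 63.8 CPM (normalised counts relative to a library size scaled by TMM factors) in the 6 ire-1 libraries and at 85.4 to 207 CPM in the 6 WT libraries, without overlap. These counts cover the whole gene, including what lies outside the deletion. Replicate 1 of the control in each strain and replicate 2 of the cold in each strain stood apart by their sperm RNA. The summed level of 40 sperm genes was 290 to 1294 CPM in these 4 and 1.94 to 104.4 CPM in the other 14 libraries. Of these 40 genes, 1 was at 0 throughout each group. Within their groups of experiment 1, the 4 sperm-rich libraries also held the highest body wall muscle and epidermis marker sums. Each held the lowest germ line and oocyte marker sum as well. In WT control 1 to 3 muscle was at 4194, 2212 and 654 CPM, and germ line at 1258, 4871 and 4210 CPM. The name sperm-rich thus covers only 1 of these differences. All 10 intestine markers were detected in every group, as were the 8 germ line and oocyte markers, which fits the label of whole adults.

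The genes lie mostly in tandem. Chromosome II holds 26 of the 49, and 23 of these fall in 3 clusters with gaps of at most 50 kb (WBcel235, Ensembl 115 annotation). The first, II:4879891-4935054, holds *gst-6*, *gst-7*, *gst-8*, *gst-9* and *gst-30*. The second, II:13608154-13630887, holds *gst-20*, *gst-24*, *gst-15*, *gst-14*, *gst-12*, *gst-16*, *gst-19*, *gst-17* and *gst-18*, all on the minus strand. The third, II:15163817-15185389, holds *gst-26*, *gst-27*, *gst-28*, *gst-29*, *gst-39*, *gst-31*, *gst-32*, *gst-34* and *gst-35*, also all on the minus strand. A small cluster at IV:10139380-10143099 holds *gst-3*, *gst-2* and *gst-4*. The other 23 genes stand alone, among them *gst-1* (III:9059331-9060181), *gst-13* (II:9231457-9232344), *gstk-1* (II:9656705-9657719), *gsto-1* (III:7945542-7947018) and *gst-38* (V:15915162-15916070). Exons of 12 members overlap those of another gene, and the strand setting of the count is not given in the sources used here. Reads of *gst-17* and *gst-18*, which share 351 bases, are therefore uncertain, as are in part those of *gst-4* (65 bases shared with *dhs-12*), *gst-36* (93 with *scav-5*), *gstk-2* (65 with *elo-3*), *gst-2* (89 with an antisense RNA) and *gsto-1* (52 with *kle-2*). How far copies in a cluster resemble each other was not tested here, and how reads that match several copies were assigned is not given either.

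A pair of genes made most of the family's RNA. Per kilobase of exon, over all 18 libraries, *gst-1* averaged 311 CPM and *gst-7* averaged 236 CPM, and together they held 62.8% of the summed CPM of the family. *gst-1* is a pi-class enzyme that has been tied to protection of dopamine neurons in worms. The next gene, *gst-27*, was at 33.0 CPM per kb, 7.15-fold below *gst-7*, followed by *gst-36* at 31.5, *gstk-1* at 29.0, *gst-13* at 27.3, *gst-5* at 22.4 and *gst-10* at 22.4 CPM per kb. At the other end, 15 members were under 1 CPM in every library: *gst-25*, *gst-8*, *gst-14*, *gst-19*, *gst-17*, *gst-18*, *gst-31*, *gst-32*, *gst-34*, *gsto-2*, *gst-40*, *gst-2*, *gst-37*, *gst-23* and *gst-11*. Their total counts over 18 libraries were 4 to 105 reads. Only *gst-32* and *gst-40* of them passed the filter on low counts, in the comparisons within experiment 1, and neither was called. *gst-8* was untested but at 0 to 0.140 CPM in WT cold, below all WT controls of the same experiment, a difference of few reads. Between these ends 12 members averaged at least 10 CPM, 16 averaged 1 to 10 CPM, and 6 averaged less but exceeded 1 CPM in some library.

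**Figure D1:**
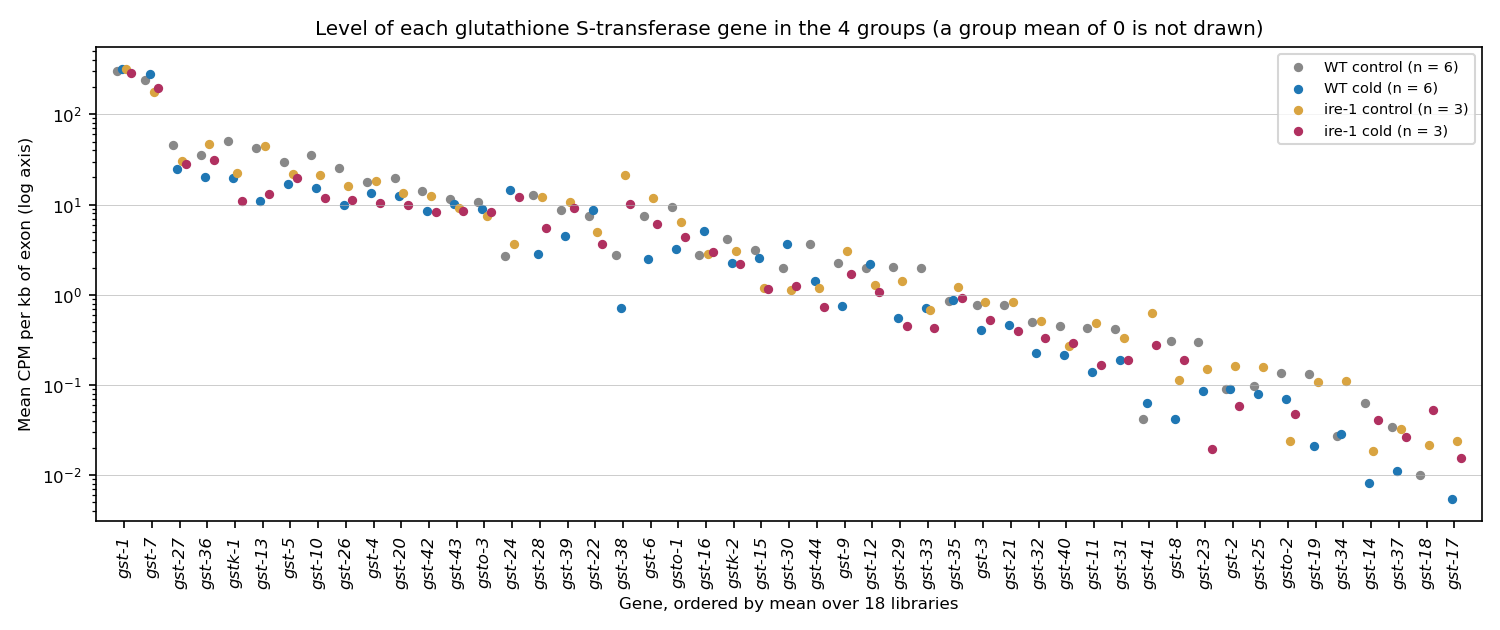
Mean CPM per kilobase of exon (log axis) of each glutathione S-transferase gene, ordered by its mean over 18 libraries, with 1 point for each group. The points of gst-1 and gst-7 lie above those of every other gene in all 4 groups, and those of gst-38 spread most widely among the genes of middle level.

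The summed level of all 49 genes was 726 ± 131 CPM in WT control (SD, n = 6), 629 ± 65.6 CPM in WT cold (n = 6), 646 ± 7.64 CPM in ire-1 control (n = 3) and 544 ± 12.5 CPM in ire-1 cold (n = 3). *gst-1* and *gst-7* together were at 307 to 544 CPM in WT control and 409 to 537 CPM in WT cold, whereas the other 47 genes together were at 201 to 533 CPM in WT control and 122 to 257 CPM in WT cold. The share of *gst-1* and *gst-7* in the family's CPM was therefore 41.4% to 67.1% in WT control and 61.4% to 77.02% in WT cold, ranges that overlap.

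The response of WT to cold was asked first, over 12 libraries in a model with an experiment effect. The test was edgeR's quasi-likelihood test with Benjamini-Hochberg adjustment over all genes tested, called at an adjusted p under 0.05. Of the 49 genes 32 passed the filter on low counts, and 17 were not tested. In cold WT worms 8 members fell and 1 rose. Thus 28.1% of the tested members were called, against 13.1% of all 11766 genes tested, 25.0% were called lower, against 10.4%, and 1 of 32 was called higher, against 2.7%. At an unadjusted p under 0.05 from edgeR there were 21 of the 32, or 65.6%, against 32.5% of all genes. The median change of the tested members was a log2 fold change of -0.79, with 78.1% of them below 0, where all genes tested had a median of -0.07 and 54.7% below 0. In 7 members the control and cold libraries did not overlap within either experiment, in the same direction, which is 21.9% of those tested, against 9.04% of all genes. Of these 7, 1 was higher in cold, where 2.24% of all genes were, and 6 were lower, where 6.81% were. Within experiment 1 alone 12 members did not overlap, 1 higher and 11 lower, which is 37.5%, against 21.3% of all genes (6.71% higher and 14.6% lower).

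*gst-24* was the member that rose. It lies in the second cluster and is known as a target of SKN-1. Its lowest, median and highest levels were 0.846, 1.80 and 3.88 CPM in WT control and 4.47, 8.92 and 26.3 CPM in WT cold, so every cold library lay above every control library, with WT cold 5 far above the rest. The log2 fold change was 2.33 ± 0.51 (SE, n = 6 and 6; edgeR adjusted p = 0.0110), or 5.03-fold. It was 1.64 in experiment 1 alone and 3.22 in experiment 2 alone, and neither passed the test alone (edgeR adjusted p = 0.189 and 0.106). Its neighbours were not called. *gst-20*, less than 1 kb away, stood at -0.72 ± 0.27 (edgeR adjusted p = 0.0895), and *gst-15* on the other side at -0.30 ± 0.36 (edgeR adjusted p = 0.583). *gst-15* had 2.10 CPM in WT control and 1.82 CPM in WT cold as medians, with overlapping ranges.

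*gstk-1*, a kappa-class enzyme assigned to peroxisomes in worms, fell with the smallest p. It ranged from 25.2 through a median of 39.9 to 51.5 CPM in WT control and from 12.5 through 15.5 to 18.7 CPM in WT cold. No cold library reached the lowest control. The log2 fold change was -1.38 ± 0.19 (edgeR adjusted p = 0.000896). *gsto-1*, of the omega class, whose members reduce rather than conjugate many of their substrates, went from 4.46, 8.11 and 8.93 CPM (lowest, median, highest) in WT control to 1.72, 2.79 and 3.50 CPM in WT cold, again without overlap, and its log2 fold change was -1.58 ± 0.28 (edgeR adjusted p = 0.00371). The other kappa gene, *gstk-2*, was not called, nor was *gsto-3*, which stood at -0.29 ± 0.30 (edgeR adjusted p = 0.511).

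Among the genes outside the clusters *gst-13* fell from 19.4, 26.7 and 65.8 CPM (lowest, median, highest) to 4.31, 6.67 and 15.8 CPM. The highest value of each group was in its sperm-rich library. The groups did not overlap, and the log2 fold change was -1.96 ± 0.36 (edgeR adjusted p = 0.00443). *gst-38* was low in WT throughout, at 1.02, 1.74 and 6.00 CPM in WT control and 0.246, 0.402 and 1.47 CPM in WT cold. Its ranges overlapped over both experiments but not within either, and it fell by 1.95 ± 0.53 on the log2 scale (edgeR adjusted p = 0.0314).

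The third cluster held 3 of the 8 falls, and all 6 of its tested members were below 0, with a median of -1.21. One of them, *gst-35*, was near 0 (-0.04 ± 0.44). Outside the clusters 14 of 16 tested members were also below 0 and 2 above, with 4 falls and a median of -0.87. *gst-26* went from 10.5, 17.3 and 29.9 CPM to 4.74, 6.53 and 10.3 CPM, without overlap, and fell by 1.40 ± 0.25 on the log2 scale (edgeR adjusted p = 0.00354). *gst-28* went from 3.71, 8.04 and 21.1 CPM to 1.21, 1.75 and 4.07 CPM, overlapping in its extremes, and fell by 2.20 ± 0.50 (edgeR adjusted p = 0.0139). *gst-27*, the most abundant gene of the cluster, went from 16.9, 32.4 and 46.7 CPM to 10.9, 19.9 and 23.3 CPM, also overlapping, and fell by 0.93 ± 0.23 (edgeR adjusted p = 0.0209). Their neighbours *gst-39* (-1.01 ± 0.32, edgeR adjusted p = 0.0535) and *gst-29* (-1.91 ± 0.66, edgeR adjusted p = 0.0724) were below 0 without passing this test, while DESeq2 called both (DESeq2 adjusted p = 0.0166 and 0.0309).

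In the first cluster *gst-6* fell while the far more abundant *gst-7*, which starts about 2 kb away, was not called. *gst-6* went from 3.58, 4.83 and 9.68 CPM to 0.794, 1.75 and 3.08 CPM, and every cold library lay below every control. The log2 fold change was -1.62 ± 0.39 (edgeR adjusted p = 0.0168). *gst-7* was at 98.2, 183 and 245 CPM in WT control and 186, 211 and 252 CPM in WT cold. Its log2 fold change was 0.21 ± 0.17, with a 95% interval of -0.15 to 0.58 (edgeR adjusted p = 0.385). The other abundant gene, *gst-1*, was at 150, 229 and 299 CPM in WT control and 197, 238 and 285 CPM in WT cold, a log2 fold change of 0.07 ± 0.11 with an interval of -0.18 to 0.32 (edgeR adjusted p = 0.694).

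**Figure D2:**
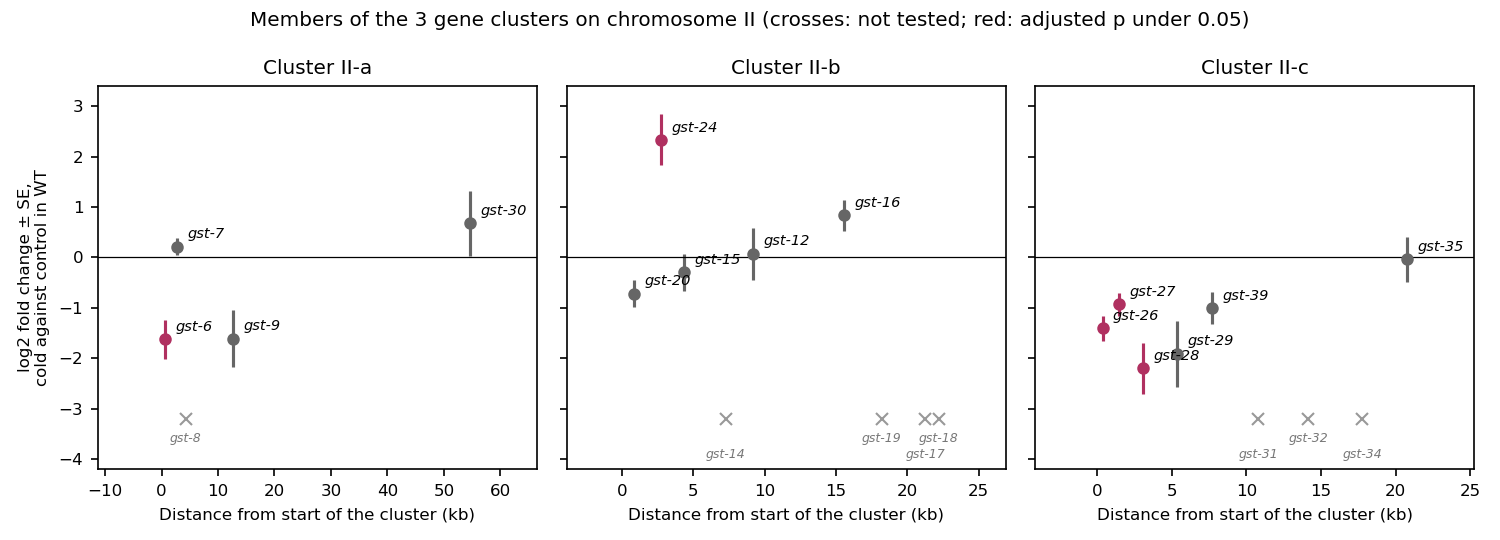
log2 fold change in cold against control WT (± SE, n = 6 per group) of the genes of the 3 clusters on chromosome II, plotted by distance in kb from the start of the cluster, with crosses for genes not tested. In the second cluster gst-24 stands at 2.33 between gst-20 at -0.72 and gst-15 at -0.30. All 6 tested genes of the third cluster lie below 0, with gst-35 at -0.04.

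Other well-studied members did not pass the test in WT. *gst-4*, the common reporter of SKN-1 activity, was at 6.31, 8.996 and 34.8 CPM in WT control and 5.29, 7.44 and 25.0 CPM in WT cold. WT control 1 and WT cold 5 each stood far above the other 5 of their group, and the log2 fold change was -0.42 ± 0.56 (edgeR adjusted p = 0.614). The sign of *gst-4* turned without WT control 1, where its change was 0.23, and in experiment 2 alone, where it was 0.50. *gst-10*, known in worms for conjugating the lipid peroxidation product 4-hydroxynonenal, was at 15.2, 21.1 and 49.8 CPM in WT control and 5.31, 9.67 and 17.2 CPM in WT cold. These ranges overlapped, and its change of -1.25 ± 0.39 missed the threshold (edgeR adjusted p = 0.0513). *gst-10* passed it in 8 of 19 alternatives, among them DESeq2 (adjusted p = 0.0114), edgeR without a filter on low counts (adjusted p = 0.0443) and edgeR without the sperm-rich libraries (adjusted p = 0.0176). *gst-5* (-0.79 ± 0.38, edgeR adjusted p = 0.169), *gst-36* (-0.79 ± 0.34, edgeR adjusted p = 0.132) and *gst-42* (-0.77 ± 0.32, edgeR adjusted p = 0.118), the last a zeta-class enzyme of tyrosine breakdown, were below 0 too. Of the 23 members tested and not called, 17 were below 0.

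Single libraries moved these calls. *gst-27* was not called when WT control 4, WT control 5 or 1 of WT cold 1, 4 and 6 was left out (edgeR adjusted p = 0.0522 to 0.0661), and *gst-38* was not called when 1 of WT control 1, 4 and 5 or 1 of WT cold 1, 3, 4 and 6 was left out (edgeR adjusted p = 0.0509 to 0.0834). The other 7 stayed called with any 1 library left out. The number called rose from 9 to 14 without WT control 3, to 15 without WT control 6 and to 15 without WT cold 5. WT control 6 held the lowest control value of 20 of the 32 tested members, or 62.5%, against 30.6% of all genes. Neither experiment alone gave a call (edgeR, with 3 libraries a group). All 9 members called over both had an unadjusted p under 0.05 in each (edgeR). They were chosen by the fit of these same libraries, so this is no separate support for them.

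**Figure D3:**
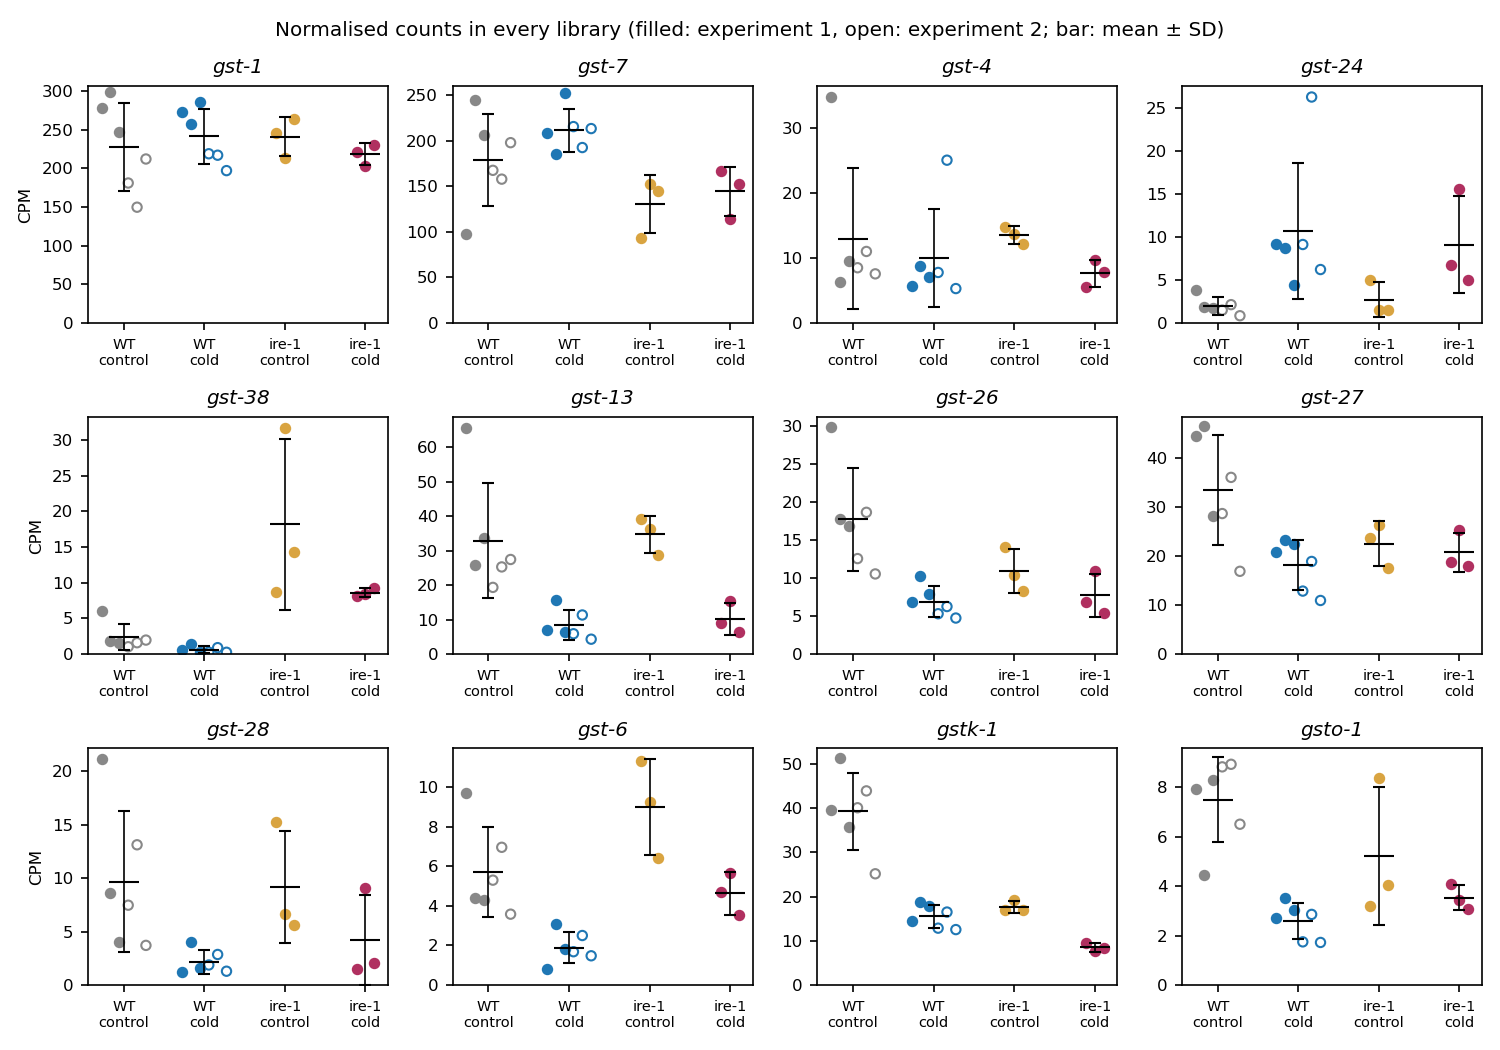
CPM in every library of 12 glutathione S-transferase genes, with filled points for experiment 1, open points for experiment 2 and bars for the mean ± SD of each group. gst-1 and gst-7 overlap between control and cold, gst-24 is higher in all WT cold libraries, gstk-1, gst-13, gst-26 and gst-6 are lower in them, and gst-38 is highest in the ire-1 strain.

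Markers of the intestine moved in the same direction as the falling members. Of 10 intestine markers 7 fell in cold WT, with a median log2 fold change of -1.54. Their summed level was 2121 to 7040 CPM in WT control and 749 to 3746 CPM in WT cold, with the highest cold value in WT cold 5, the library that also held the highest cold value of 15 of the 32 tested members, or 46.9%, against 22.8% of all genes. Of the 6 epidermis markers 4 were tested and 2 fell. None of the 18 sperm genes tested was called (edgeR; 0 at an unadjusted p under 0.05, against 32.5% of all genes). All 18 lay below 0, though, with a median of -1.47. None of 5 muscle, 6 neuron and 3 pharynx markers tested was called (edgeR; 1, a neuron marker, at an unadjusted p under 0.05), and 1 of 8 germ line markers rose. The part of these markers in the falls of the family was not tested. Without WT control 1 and WT cold 2, the sperm-rich WT libraries, 11 members were called, and *gst-27* was not among them (edgeR adjusted p = 0.0503).

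The genes that supply glutathione and act beside the family were counted in cold WT against the 13.1% of all genes called, 2.7% higher and 10.4% lower. At an unadjusted p under 0.05 from edgeR there were 32.5% of all genes. Of 22 genes of glutathione synthesis, reduction and peroxidases, 20 were tested, 3 fell and none rose (median -0.12). The falls were *cth-2* (203 to 69.7 CPM on average; -1.53 ± 0.35, edgeR adjusted p = 0.0128) and *cth-1* (-1.03 ± 0.28, edgeR adjusted p = 0.0327), which code for cystathionine gamma-lyases that yield cysteine, and the peroxidase gene *gpx-7* (-1.71 ± 0.43, edgeR adjusted p = 0.0227). *gcs-1*, the rate-limiting enzyme of glutathione synthesis, stood at 0.31 ± 0.11 (edgeR adjusted p = 0.0738), and *gsr-1*, glutathione reductase, at 0.16 ± 0.10 (edgeR adjusted p = 0.298). None of 10 regulators of the SKN-1 pathway was called (edgeR; 6 at an unadjusted p under 0.05), and *skn-1* itself averaged 158 CPM in control and 218 CPM in cold (0.43 ± 0.18, edgeR adjusted p = 0.117). None of 5 SKN-1 targets outside the family was called (edgeR; 1 at an unadjusted p under 0.05). That 1 is *gcs-1*, which is in both lists. Of 15 tested genes for superoxide, peroxide and thioredoxin enzymes 1 fell, the peroxisomal catalase gene *ctl-2* (-1.88 ± 0.39, edgeR adjusted p = 0.00850). Of the 9 multidrug resistance-associated transporters, pumps of the kind that export glutathione conjugates, 2 fell, *mrp-5* (-0.56 ± 0.16, edgeR adjusted p = 0.0386) and *mrp-3* (-1.12 ± 0.34, edgeR adjusted p = 0.0488).

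The ire-1 strain was compared between cold and control over the 12 libraries of experiment 1, with 35 members tested. No member passed edgeR's test. At an unadjusted p under 0.05 there were 5 of them, or 14.3%, against 7.03% of all genes, and DESeq2 called 2, *gst-13* and *gstk-1*. Few genes of any kind were called here, 0.0558% of 14344. The median of the tested members was -0.48, with 82.9% below 0, against -0.04 and 54.2% for all genes. In 8 members, all lower, the 3 cold libraries did not overlap the 3 controls, which is 22.9%, against 13.9% of all genes (9.32% lower and 4.53% higher).

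*gstk-1* was at 16.98, 19.2 and 16.9 CPM in ire-1 control and 9.54, 7.69 and 8.27 CPM in ire-1 cold. The cold libraries were all lower, and the log2 fold change was -1.06 ± 0.22 (n = 3 and 3; edgeR adjusted p = 0.122). *gst-13* was at 39.1, 36.2 and 28.8 CPM in ire-1 control and 8.93, 15.3 and 6.25 CPM in ire-1 cold, without overlap, at -1.74 ± 0.53 (edgeR adjusted p = 0.299). Without the sperm-rich libraries its change was -2.15 ± 0.27 and passed the test (edgeR adjusted p = 0.0143). *gst-29* was at 1.16, 0.923 and 0.903 CPM in ire-1 control and 0.374, 0.364 and 0.202 CPM in ire-1 cold, at -1.64 ± 0.51 (edgeR adjusted p = 0.325). *gst-24* was at 5.03, 1.46 and 1.57 CPM in ire-1 control and 6.73, 15.5 and 4.99 CPM in ire-1 cold. Its highest control exceeded its lowest cold library by little, and the change was 1.78 ± 0.66 (edgeR adjusted p = 0.495). All 9 members called in WT had the same sign in the ire-1 strain, each with a smaller estimate than in WT over both experiments. These 9 were chosen by their WT estimates, which came from more libraries. In experiment 1 alone *gst-24* was at 1.64 in WT, below its 1.78 in the ire-1 strain. The others of the 9 were still smaller in the ire-1 strain than in WT of experiment 1.

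Whether the response to cold differed between the strains was tested directly as an interaction, and no member was called (edgeR; 0 at an unadjusted p under 0.05), nor was any of the 14344 genes tested (0%, with 1.37% at an unadjusted p under 0.05). The tested members had a median difference, ire-1 minus WT, of 0.47 log2, against 0.12 for all genes. The smallest p belonged to *gst-27*, with a difference of 0.75 ± 0.40 and a 95% interval of -0.12 to 1.63 (edgeR adjusted p = 0.996), followed by *gst-39* at 0.81 ± 0.51 and *gst-26* at 0.90 ± 0.57, both with the same adjusted p from edgeR. The interval held 0 for all 35 tested members, and for *gstk-1* it ran from -0.44 to 0.95. For *gst-24* it ran from -1.78 to 2.26, which holds differences as large as the response itself. A smaller estimate in the ire-1 strain is therefore not shown to be a difference. The same WT and ire-1 libraries of experiment 1 enter this test and those of the strains.

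**Figure D4:**
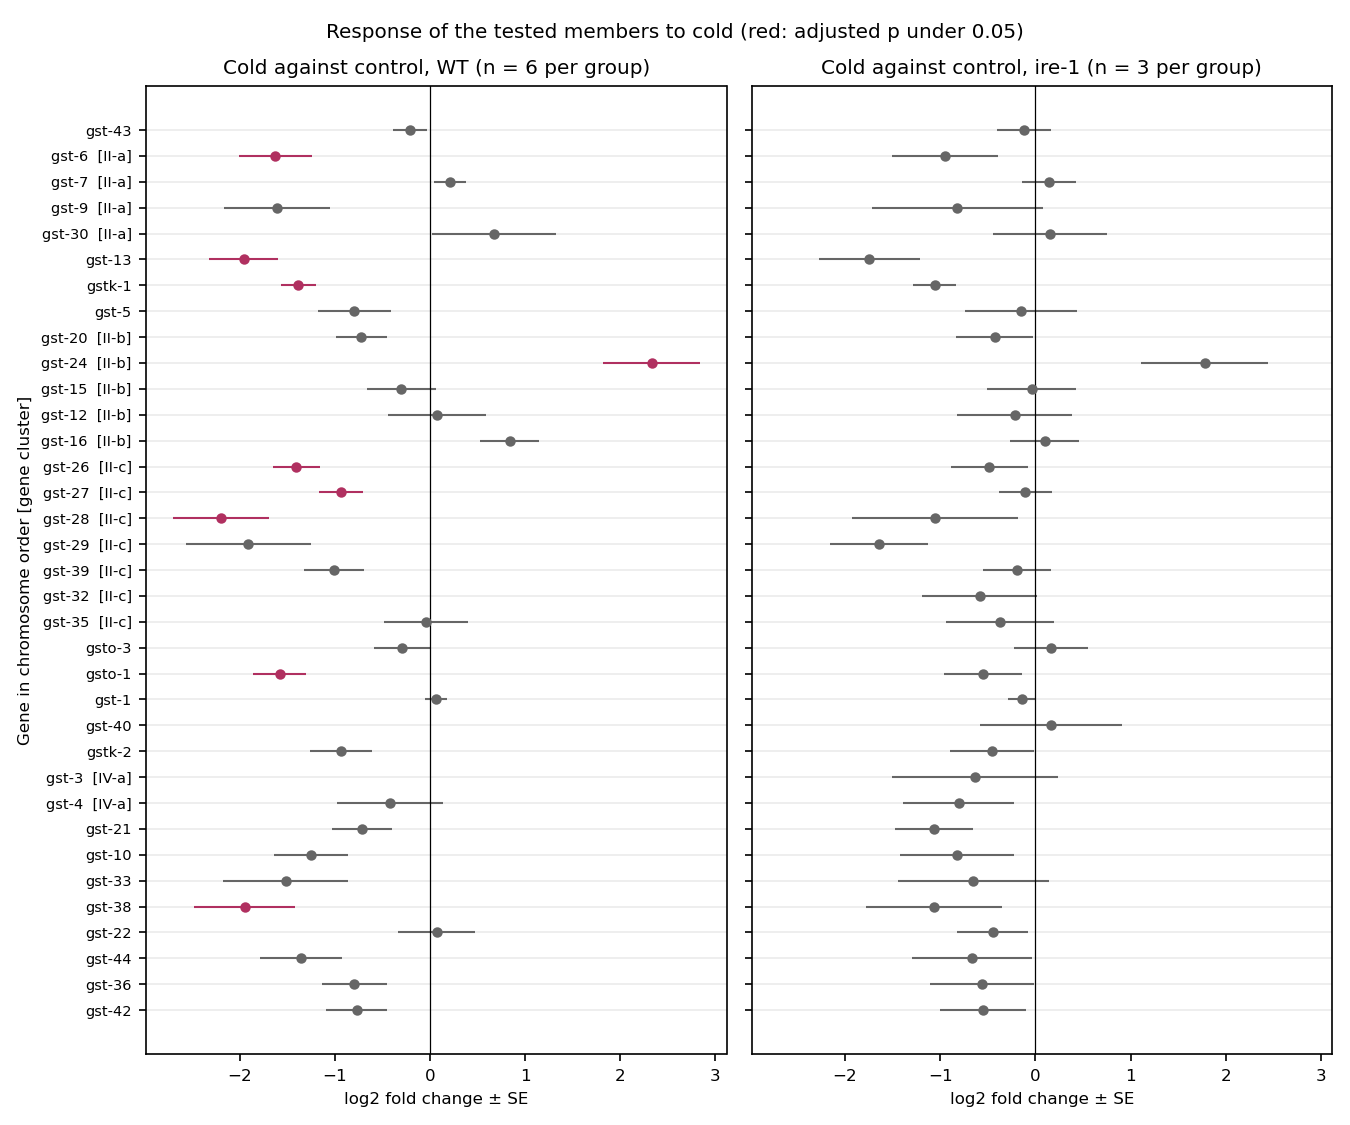
log2 fold change ± SE in cold against control for each tested gene in chromosome order, in WT on the left (n = 6 per group) and in the ire-1 strain on the right (n = 3 per group), with called genes in red. In WT 8 called genes lie left of 0 and gst-24 lies right of it, and in the ire-1 strain the same 9 genes lie on the same sides with none called.

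Between the strains at 15 °C no member was called (edgeR; 5 at an unadjusted p under 0.05, or 14.3%, against 12.1% of all genes), where 0.0627% of all genes were. DESeq2 called 2, *gst-38* and *gstk-1*. This edgeR test did not pair libraries by their number. With a block for the number within each condition edgeR called *gstk-1*, *gst-26* and *gst-27*, as given below. The median of the 35 tested members was -0.50, against -0.04 for all genes, and 82.9% were below 0, against 53.1%. The groups did not overlap in 7 of the 35, 1 higher and 6 lower in the ire-1 strain, against 14.6% of all genes (4.43% higher and 10.2% lower).

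*gst-38* was the higher one. It was at 6.00, 1.89 and 1.60 CPM in WT control 1 to 3 and at 8.66, 31.6 and 14.3 CPM in ire-1 control 1 to 3. Every ire-1 library exceeded every WT library, most narrowly in replicate 1, and the log2 difference was 2.41 ± 0.74 with an interval of 0.77 to 4.05 (edgeR adjusted p = 0.227), or 5.31-fold. In cold it was at 0.502, 1.47 and 0.303 CPM in WT 1 to 3 and at 8.18, 8.34 and 9.28 CPM in the ire-1 strain. The cold groups were far apart, at 3.41 ± 0.78 with an interval of 1.68 to 5.14 (edgeR adjusted p = 0.613), or 10.6-fold. Without the 4 sperm-rich libraries both differences passed the test, at 3.77 ± 0.41 in the control (edgeR adjusted p = 0.0328) and 4.40 ± 0.47 in the cold (edgeR adjusted p = 0.0191). That fit has 2 libraries in each group. *gst-38* was thus the member with the largest estimate in both strain comparisons, and the ire-1 libraries, control and cold, all exceeded the 12 WT libraries of both experiments.

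*gstk-1* differed the other way. Its WT controls of experiment 1 were at 39.7, 51.5 and 35.7 CPM, against the 16.98, 19.2 and 16.9 CPM of ire-1 control. The WT libraries were all higher, and the difference was -1.32 ± 0.22 (edgeR adjusted p = 0.103). It was called with a block for the replicate number within each condition (-1.30 ± 0.22, edgeR adjusted p = 0.0183) and without WT control 3 (-1.45 ± 0.23, edgeR adjusted p = 0.0474). In cold WT it was at 14.5, 18.7 and 17.9 CPM, against 9.54, 7.69 and 8.27 CPM in the ire-1 strain, at -1.06 ± 0.22 (edgeR adjusted p = 0.546). *gstk-1* had the smallest p of the family in both strain comparisons.

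The block also called *gst-26* and *gst-27* in the control, so that the number of members called rose from 0 to 3, all lower in the ire-1 strain. *gst-27* was at 44.6, 46.7 and 28.2 CPM in WT control 1 to 3 and at 23.7, 26.5 and 17.6 CPM in ire-1 control, without overlap, at -0.89 ± 0.28 (edgeR adjusted p = 0.241, and 0.0460 with the block). *gst-26* was at 29.9, 17.8 and 16.8 CPM and at 14.1, 10.5 and 8.36 CPM in the same libraries, also without overlap, at -1.04 ± 0.41 (edgeR adjusted p = 0.330, and 0.0476 with the block). The intestine markers also did not overlap between these groups. Their sum was 2713 to 6888 CPM in WT control 1 to 3 and 1595 to 2547 CPM in ire-1 control. None of the 10 was called (edgeR; 4 at an unadjusted p under 0.05), and their part in the differences of the family was not tested.

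In the cold no member was called between the strains (edgeR; 5 at an unadjusted p under 0.05, or 14.3%, against 7.65% of all genes), where 0.0139% of all genes were, and DESeq2 called *gst-38* and *gstk-1*. The median was -0.07, against 0.07 for all genes. The groups did not overlap in 7 of 35 members, against 12.5% of all genes (5.08% higher and 7.42% lower). *gst-38*, *gst-6* and *gst-39* were higher in the ire-1 strain, and *gstk-1*, *gst-7*, *gst-15* and *gst-1* were lower. *gst-15* was at 2.51, 1.86 and 1.78 CPM in WT and at 0.795, 1.26 and 0.555 CPM in the ire-1 strain, at -1.24 ± 0.47 (edgeR adjusted p = 0.613). The abundant *gst-7* was at 208, 186 and 252 CPM in WT and at 166, 114 and 152 CPM in the ire-1 strain, at -0.63 ± 0.29 (edgeR adjusted p = 0.650). The intestine sums of these groups overlapped, at 1422 to 1684 CPM in WT and 1329 to 2230 CPM in the ire-1 strain.

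Markers of other tissues were compared between the strains too, and none was called (edgeR). The summed level of 5 pharynx markers was 4.32 to 13.3 CPM in the WT libraries of experiment 1 and 8.19 to 188 CPM in the ire-1 libraries, ranges that overlap, with the highest values in the sperm-rich ire-1 control 1 and ire-1 cold 2. The 4 pharynx markers tested had a median log2 difference of 3.56 in the control (2 at an unadjusted p under 0.05) and 3.30 in the cold (3 at that p). The 6 epidermis markers had medians of 1.23 in the control (0 at that p) and 2.59 in the cold, where all 6 were above 0 (2 at that p). Of the 36 sperm genes tested, 24 were above 0 in the control (median 0.08) and all 36 in the cold (median 1.68), with 0 at that p in either. Epidermis sums overlapped, at 407 to 2753 CPM in WT control 1 to 3 and 541 to 1799 CPM in ire-1 control, and at 408 to 943 CPM and 549 to 999 CPM in the cold. The part of these markers in the strain differences of the family was not tested. In ire-1 control 1 to 3 *gst-38* was at 8.66, 31.6 and 14.3 CPM and the pharynx sum at 124, 8.19 and 15.6 CPM. In ire-1 cold 1 to 3 *gst-38* was at 8.18, 8.34 and 9.28 CPM and the pharynx sum at 16.8, 188 and 21.6 CPM. A relation between them was not tested. No pathway gene of the lists above was called in the other 4 comparisons (edgeR; 0 to 9 of a list at an unadjusted p under 0.05). The most were in the strains in the control, where 12.1% of all genes had such a p. There 9 of 21 tested genes of glutathione synthesis, reduction and peroxidases had it, with 17 of the 21 below 0. So had 6 of 15 genes for superoxide, peroxide and thioredoxin enzymes, with 11 of the 15 below 0.

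**Figure D5:**
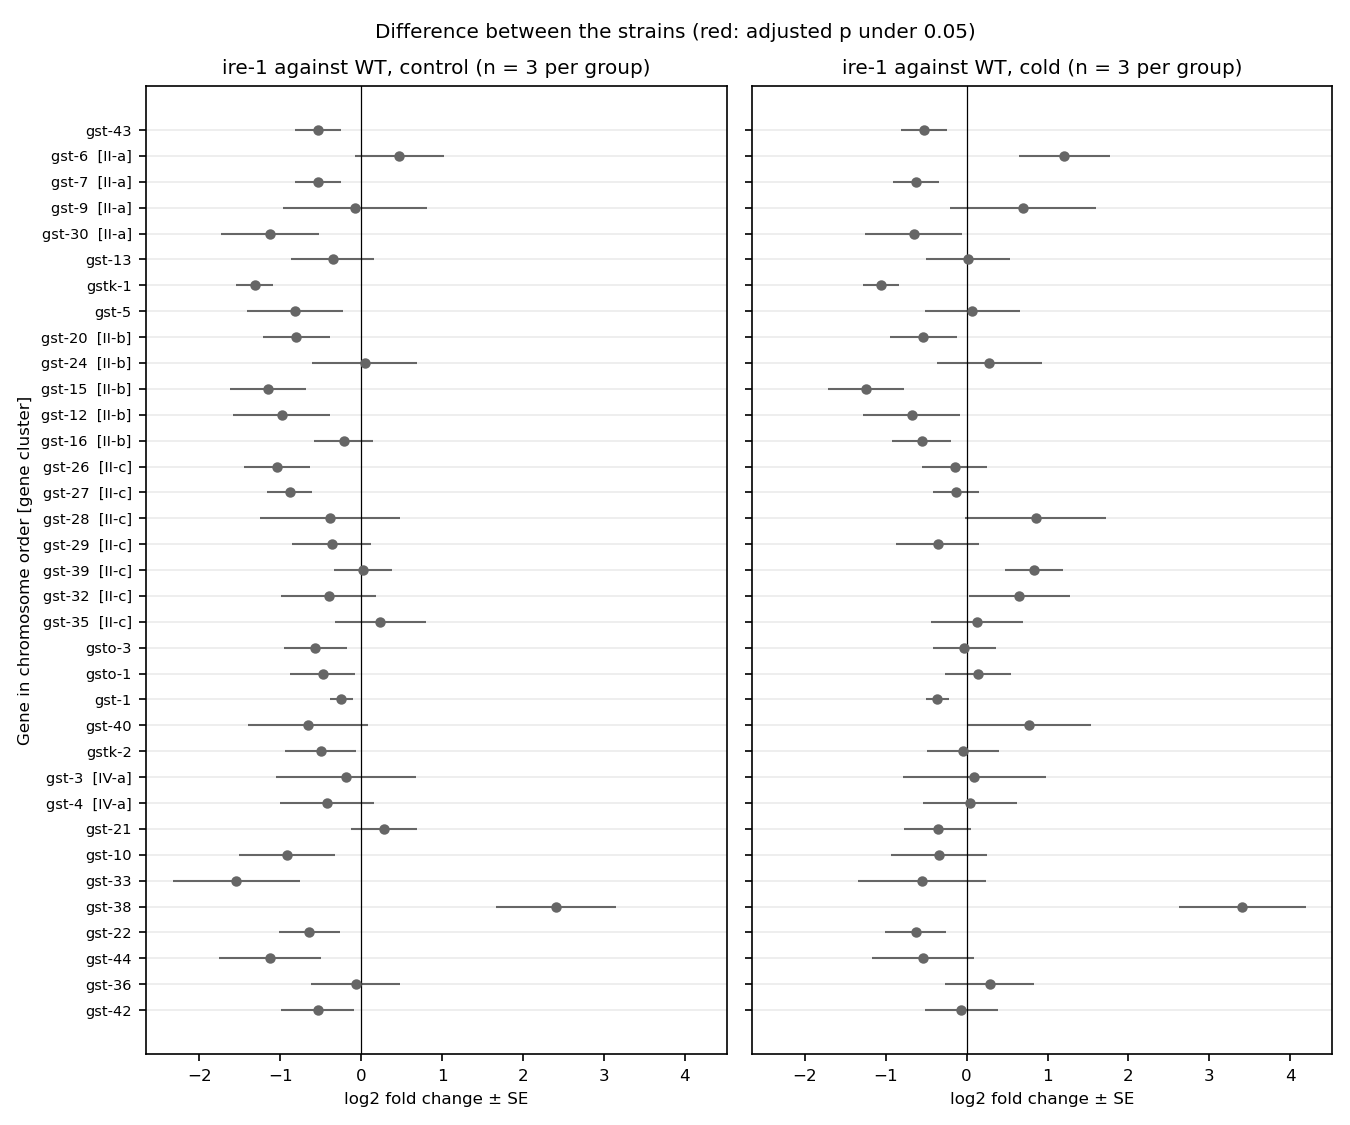
log2 difference ± SE between the ire-1 strain and WT for each tested gene in chromosome order, in the control on the left and in the cold on the right (n = 3 per group). gst-38 lies farthest right in both, at 2.41 and 3.41, gstk-1 lies at -1.32 and -1.06, and no gene is called.

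Finally, members were set against the sperm-rich libraries. Of the 35 members tested in experiment 1, 11 were highest in the sperm-rich library of each of the 4 groups of that experiment, which is 31.4%, near the 27% of all genes. They were *gst-6*, *gst-9*, *gst-13*, *gst-5*, *gst-12*, *gst-26*, *gst-28*, *gstk-2*, *gst-4*, *gst-36* and *gst-42*. *gst-7* and *gst-43* were lowest in all 4, which is 5.71%, against 21.3% of all genes. For *gst-7* the sperm-rich libraries had 98.2 CPM in WT control, 93.5 CPM in ire-1 control, 186 CPM in WT cold and 114 CPM in ire-1 cold.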

How the data were processed

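The authors deposited raw counts per gene, 1 column per library in 2 tables, and all values were whole, with column totals that differ. Per the submitters' processing notes, bcl2fastq, STAR 2.5.0a, HTSeq and the build WBcel235 were used, and per the labels' protocols libraries came from poly(A)-selected RNA with a NEBNext Ultra II kit. Neither the annotation release nor the strand setting is given in the sources used here. Symbols, positions and exon lengths came from the Ensembl 115 annotation, and 3055 identifiers without a symbol held 1.42% of the counts. One CPM stood for 10 or more reads in each library, so counts near 1 CPM carry marked counting error.

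Genes were tested with edgeR 4.0.16 (R 4.3.3; glmQLFit and glmQLFTest, TMM factors, filterByExpr with minimum count 10 and minimum total 15), with Benjamini-Hochberg adjustment over all tested genes of each of 5 comparisons. SE is the absolute log2 fold change over the root of the F statistic, and intervals use the t quantile with the fit's degrees of freedom. Cold in WT used 12 WT libraries with an experiment term, and the others used the 12 libraries of experiment 1 with 4 groups sharing 1 estimate of spread. Libraries of a group were not near-identical (smallest chi-square per degree of freedom 12.2). In deviations from group means, same-numbered libraries of both strains correlated within a condition in 6 of 6 pairs (0.36 to 0.88, limit 0.1). The number was therefore read as pairing strains there. The main tests of the strains and of the difference in cold response leave this pairing out. It enters only in the block within each condition, given as an alternative. Control and cold libraries of a number correlated at -0.88 to 0.80, with 6 of 15 pairs over 0.1. The sperm-rich libraries of experiment 1 have number 1 in the control and number 2 in the cold, so this check cannot settle such a pairing. The main tests do not use it. Alternatives were RLE factors, no filter on low counts, DESeq2 1.42.0, replicate blocks, each experiment alone, only the 2 groups compared, no sperm-rich libraries, and each library left out. The script was tested on simulated data.

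The members, the pathway and marker lists and the naming rule were chosen with earlier results of these data known. Members named with values were those called in any comparison, *gst-1*, *gst-4*, *gst-5*, *gst-10*, *gst-24*, *gst-38*, *gst-42*, *gsto-1* and *gstk-1*, the 3 with the smallest p in each comparison, and the 5 with the highest CPM per kb. *gst-20*, *gsto-3* and *gst-43*, and the genes named for lack of overlap or in the order of levels, were chosen after their values were seen. Of each pathway list up to 3 genes with the smallest p were eligible, plus *skn-1*, *gcs-1* and *gsr-1*. No protein or promoter sequences were used here.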

Additional observations from a re-analysis of the deposited data

Results flagged for a closer look

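In 8 of 38 sets of 6 WT libraries examined, 1 library stood far from the other 5. The sets share the same WT libraries and are not independent, so this count cannot be set against a chance rate. WT control 1 was high in 6 of them, at 65.8 CPM for *gst-13* (next highest 33.7), 34.8 CPM for *gst-4* (next 10.99), 49.8 CPM for *gst-10* (next 27.9), 6.00 CPM for *gst-38* (next 1.95), 63.8 CPM for *gst-36* (next 23.8) and 28.2 CPM for *gst-42* (next 14.4). WT cold 5 was high in the other 2, at 26.3 CPM for *gst-24* (next 9.20) and 25.0 CPM for *gst-4* (next 8.80). WT control 1 had the largest sperm, body wall muscle and epidermis sums of the WT libraries, at 1184, 4194 and 2753 CPM. Its germ line and oocyte sum was the lowest of them, at 1258 CPM. WT cold 5 had the largest intestine sum of the WT cold libraries, at 3746 CPM. The part of these sums in the flagged values was not tested.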

How the results depend on the processing

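For cold in WT, 9 members were called, 7 to 15 with 1 library left out, 16 (2 rose, 14 fell) by DESeq2, 12 with a replicate block (*gst-29*, *gst-39* and *gst-44* gained), 11 without the sperm-rich libraries, and 0 in experiment 1 or experiment 2 alone, fits with fewer samples. For cold in ire-1 the count of 0 became 2 by DESeq2 and 1 without the sperm-rich libraries, and it was 0 with any library left out. The difference in cold response gave 0 under all 18 alternatives. For the strains in the control the count of 0 became 2 by DESeq2, 3 with a replicate block within each condition and 1 without the sperm-rich libraries, and it was 0 to 1 with 1 library left out. For the strains in the cold it became 2 by DESeq2 and 1 without the sperm-rich libraries, and it was 0 otherwise. No other call of the strain comparisons or of cold in ire-1 changed with a replicate block. Signs turned only for estimates that never passed the test. For cold in WT these were *gst-15* (0.13 in experiment 1 alone, 0.00166 without WT control 5) and *gst-4* (0.17 without the sperm-rich libraries, 0.50 in experiment 2 alone, 0.23 without WT control 1, and -0.95 to 0.23 over all single libraries left out). For the difference in cold response they were *gst-24* (-0.060 without the sperm-rich libraries, -0.49 to 0.94 with 1 library left out, below 0 without WT control 1, WT cold 3, ire-1 control 2 or 3, or ire-1 cold 2) and *gstk-1* (-0.023 without WT control 2, the lowest of a range up to 0.38). For the strains in the control it was *gst-24* (-0.00917 with a replicate block, -0.076 with the block within each condition, -0.18 without the sperm-rich libraries, -0.59 to 0.65 with 1 library left out, below 0 without ire-1 control 1 or WT control 3). For the strains in the cold it was *gst-24* (-0.24 without the sperm-rich libraries, -0.45 without ire-1 cold 2, in a range up to 0.58). The causes were not tested. *gst-10* was gained in 8 alternatives, *gst-39* in 5 and *gst-29* in 4. Depth limits the 15 members under 1 CPM in every library.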
